A study of Mus musculus with 24 samples.

Results

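The comparison of double knockout (DKO) with wild type (WT) in glial nuclei sets 6 of the 24 libraries of the series against each other, namely the 3 replicates of DKO and the 3 replicates of WT among the NeuN- libraries. They were chosen by their labels alone. All mice were male C57BL/6N animals of 6 months. DKO mice came from crosses of Ogg1-/- with Mutyh-/- mice and lack both DNA glycosylases by label, and WT mice of the same strain served as control. Nuclei of the hippocampus were stained for NeuN, the product of Rbfox3 that marks most neurons, and sorted, and the NeuN- nuclei hold mainly glia together with other cells that lack NeuN. The 6 Ogg1-/- and Mutyh-/- libraries of NeuN- nuclei entered the same fit, so that all 12 NeuN- libraries share 1 estimate of the spread behind each p-value, and DKO was also set against them and compared with WT in NeuN+ nuclei. Nuclei of several animals of a genotype were pooled, and it is not clear whether a replicate is an animal, a pool or part of a pool, so p-values measure the spread between these samples, which may be technical.

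Ogg1 removes 8-oxoguanine, the common oxidation product of guanine, from DNA, and Mutyh removes adenine that was placed opposite 8-oxoguanine, so that both enzymes start base excision repair of the same lesion. Glia of the hippocampus include oligodendrocytes, which make myelin, astrocytes, which clear glutamate and potassium, oligodendrocyte precursors and microglia, the resident macrophages of the brain. RNA of nuclei holds many unspliced and noncoding transcripts, and the values below are read pairs per gene in CPM, counts scaled to the same effective library total.

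Total counts ranged from 64114727 to 92409869 in WT and from 60250937 to 87940724 in DKO, and the share of Malat1, an abundant nuclear RNA, lay between 1.82% and 1.94% of counts in these 6 libraries. Markers of the sorted fraction were as labelled, since the summed level of 9 neuronal markers was 515 to 614 CPM in WT NeuN- nuclei and 5545 to 5777 CPM in WT NeuN+ nuclei, whereas 13 oligodendrocyte and myelin genes summed to 8626 to 9509 CPM in NeuN- and to 160 to 165 CPM in NeuN+. Library DKO replicate 3 stood apart from the other NeuN- libraries on the first axis of a multidimensional scaling (1.84, against values between -1.14 and 1.29 in the other 11). Its choroid plexus markers summed to 290 CPM, whereas the 5 other libraries lay between 17.7 CPM in DKO replicate 1 and 87.8 CPM in DKO replicate 2. Values without DKO replicate 3 are given where they changed a call.

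To ask which transcripts of glial nuclei differ when both glycosylases are missing, DKO was compared with WT by edgeR's quasi-likelihood test over all 31863 tested genes. A gene counted as differentially expressed (DEG) when its log2 fold change exceeded 0.5 in size at an adjusted p under 0.05. There were 37 DEGs (0.116% of tested genes), of which 17 (0.0534%) were higher and 20 (0.0628%) were lower in DKO. The median absolute log2 fold change was 1.1 over the DEGs and 0.129 over all tested genes. In each of the 37 DEGs all DKO libraries lay above or all lay below the WT libraries, as did 17% of all tested genes. Protein-coding genes made up 22 of the DEGs, long noncoding RNAs 9 and pseudogenes 3. At an unadjusted p under 0.05, 1930 genes (6.06%) were higher and 2010 (6.31%) lower. In such bulk samples fewer cells of a type and less RNA per cell cannot be told apart.

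**Figure D1:**
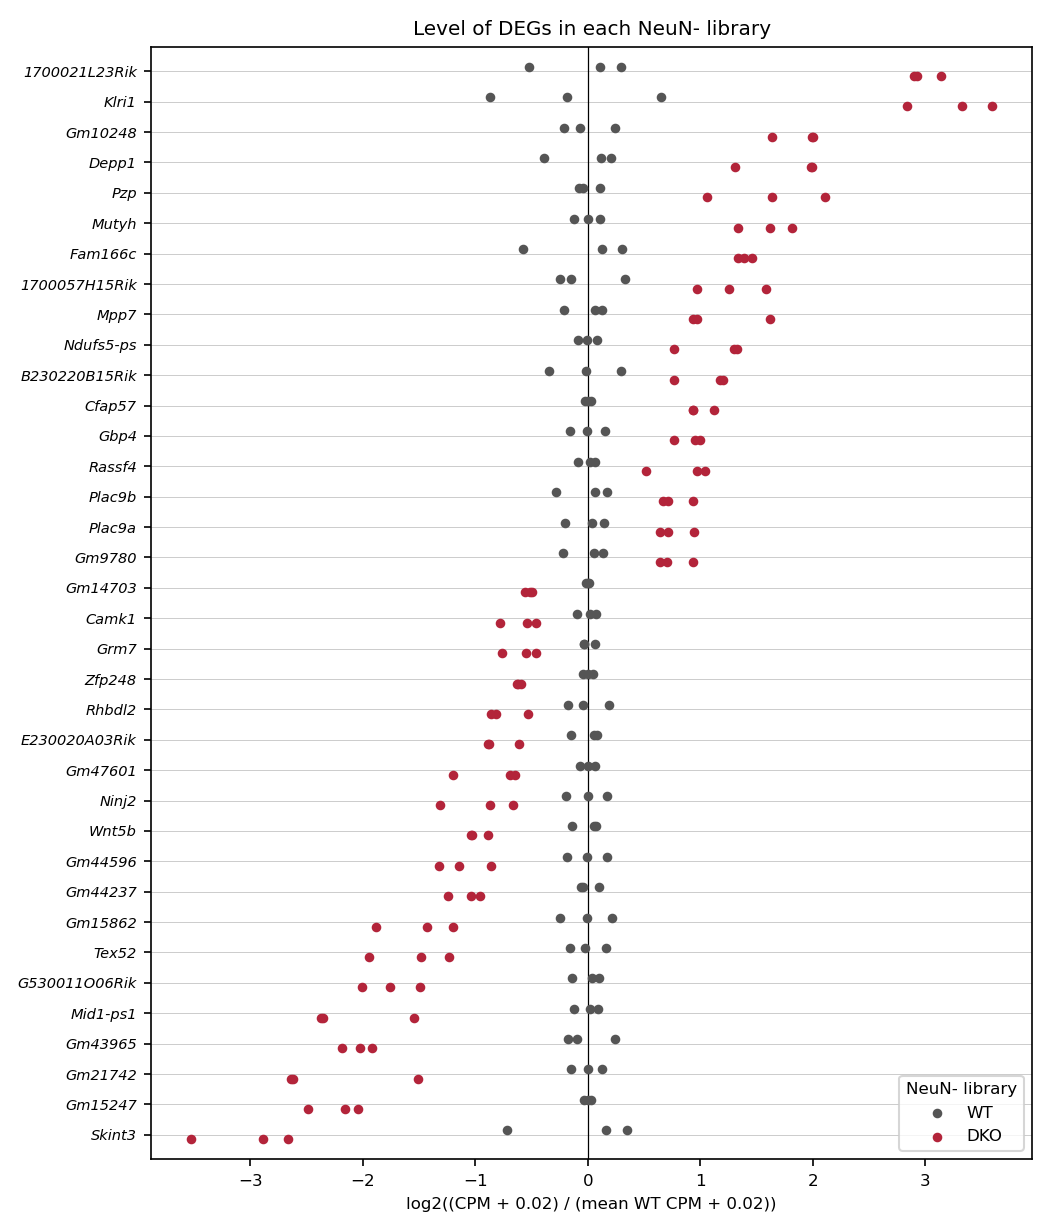
Level of 36 of the 37 DEGs in each of the 6 NeuN- libraries. The x axis gives log2 of CPM plus 0.02 over the mean WT CPM plus 0.02, grey points are the 3 WT libraries and red points the 3 DKO libraries. The red points of every gene lie on 1 side of its grey points, and in Mpp7, Mid1-ps1 and Gm21742 1 red point, DKO replicate 3, stands apart from the other two.

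The number of DEGs depended on the libraries fitted and on the test. With only the 6 DKO and WT libraries fitted there were 10 DEGs, 2 higher and 8 lower, of which 8 were among the 37. DESeq2's Wald test called 178 genes and the likelihood ratio test 174, among them 34 and 37 of the 37. The number was 19, 21 and 19 without WT replicate 1, 2 and 3, and 45, 24 and 55 without DKO replicate 1, 2 and 3. Of the 37 DEGs, 18, 19 and 18 were called again without each WT replicate, and 26, 22 and 32 without each DKO replicate. The direction of all 37 DEGs held in each of the 22 other fits in which they were tested. Their DKO and WT libraries did not overlap, and these fits reuse the same counts. The direction was thus largely fixed by the choice of DEGs and is no separate support. Only G530011O06Rik, Gm10248, Gm15247, Gm43965, Mutyh, Wnt5b and Zfp248 were called in every one of these fits.

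Of the targeted genes, Mutyh was higher in the libraries labelled DKO, against the direction of the label, so that DKO here and in each direction given below stands for the libraries labelled DKO. Mutyh (chromosome 4, 116807723 to 116819440, plus strand, GRCm38) had 3.07, 2.85 and 2.60 CPM in WT and 7.21, 8.75 and 10.1 CPM in the libraries labelled DKO. The groups did not overlap, and the log2 fold change was 1.61 with a standard error of 0.11 (edgeR, Benjamini-Hochberg adjusted p = 1.04e-04). Mutyh-/- libraries had 10.3 ± 0.239 CPM and Ogg1-/- libraries 3.42 ± 0.201 CPM (SD, n = 3). The counts are per gene, so which exons were read cannot be seen. Ogg1 (chromosome 6) had 7.0, 6.90 and 6.21 CPM in WT and 7.46, 7.75 and 6.14 CPM in DKO. Its groups overlapped and the log2 fold change was 0.09 (standard error 0.09, adjusted p = 0.741), so a loss of Ogg1 RNA was not seen at the level of the gene. Camk1, a calcium/calmodulin-dependent kinase whose gene overlaps Ogg1 on the opposite strand, fell from 30.0 ± 1.72 CPM in WT to 19.98 ± 2.23 CPM in DKO (log2 fold change -0.58, adjusted p = 0.0082), and reads of Ogg1 and Camk1 may not have been told apart. Without DKO replicate 3 the log2 fold change of Camk1 was -0.495 and passed the adjusted p (0.00681) but not the fold threshold, and its call was also lost without WT replicate 1 or 2.

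A larger share of the DEGs than of all tested genes lay close to the targeted genes. All 37 had a position, and 20 of them (54.1%) were within 20 Mb of Ogg1 or Mutyh, where 3.73% of the tested genes with a position lie. Of the 478 tested genes within 20 Mb of Ogg1, 14 (2.93%) were DEGs, 4 higher and 10 lower, and of the 691 within 20 Mb of Mutyh 6 (0.868%) were, 4 higher and 2 lower. All 6 of the latter were within 10 Mb of Mutyh. No DEG of DKO lay between 20 and 40 Mb from either gene on these chromosomes, among 505 genes around Ogg1 and 517 around Mutyh. Of the genes farther away or on other chromosomes 17 of 30204 (0.0563%) were DEGs. Without DKO replicate 3, 21 of 55 DEGs were within 20 Mb of either gene, and by DESeq2's Wald test 32 of 178. The share of genes with an unadjusted p under 0.05 was 12.4% over all tested genes. Around Ogg1 it was 14% within 1 Mb, 24.4% from 1 to 5 Mb and 29.2% from 5 to 10 Mb. Farther from Ogg1 it was 24.3% from 10 to 20 Mb and 10.1% from 20 to 40 Mb. Around Mutyh it was 13.2% within 1 Mb, 23.6% from 1 to 5 Mb and 21.9% from 5 to 10 Mb. Farther from Mutyh it was 14.8% from 10 to 20 Mb and 14.5% from 20 to 40 Mb. Neighbouring genes are not independent, and the knockout of a gene and the chromosome segment bred along with it cannot be told apart in this design.

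**Figure D2:**
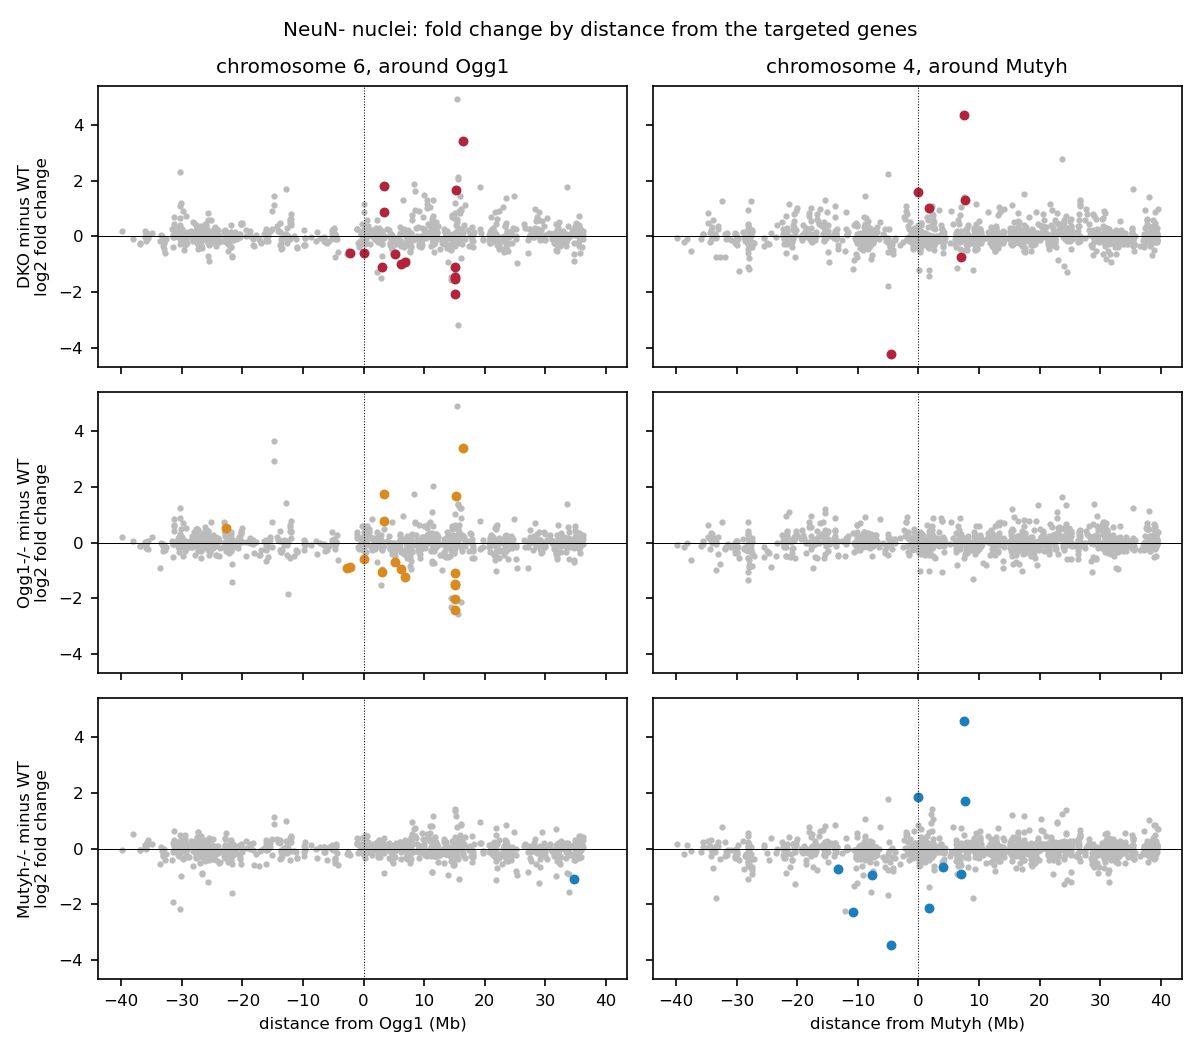
Log2 fold change against WT in NeuN- nuclei (y axis) by distance from Ogg1 on chromosome 6 (left) and from Mutyh on chromosome 4 (right) in Mb between gene centres, for DKO, Ogg1-/- and Mutyh-/- as labelled. Coloured points are DEGs of that knockout. Within 20 Mb of Ogg1 there are 14 DEGs in DKO, 16 in Ogg1-/- and 0 in Mutyh-/-, and within 20 Mb of Mutyh 6, 0 and 10, and all 3 knockouts share the WT libraries.

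Near Mutyh, a chain of neighbours on chromosome 4 differed in DKO. The long noncoding RNA 1700057H15Rik, 7.595 Mb from Mutyh, had 3.32, 2.37 and 2.22 CPM in WT and 7.93, 6.31 and 5.17 CPM in DKO. No WT library reached the lowest DKO library, and the log2 fold change was 1.29 (standard error 0.17, adjusted p = 0.0082). The noncoding RNA 1700021L23Rik, 0.103 Mb from it, had 1, 1 and 0 counts in WT and 18, 14 and 12 counts in DKO, a ratio of 24.6 (95% exact interval 6.42 to 210, counting error only). Skint3, of a family of immunoglobulin-like genes known from skin T cell selection, had 11, 18 and 19 counts in WT and 1, 0 and 1 in DKO, a ratio of WT over DKO of 21.4 (5.62 to 182). Both genes were thus close to absent in 1 of the groups, and adjusted p was 0.0147 for 1700021L23Rik and 0.0465 for Skint3. Both passed the filter on low counts only through the groups where they are high. Their ratios and p-values follow in part from that filter, and neither was tested where 10 counts were asked of every library. Rhbdl2, a rhomboid protease, had 8.11, 6.31 and 6.92 CPM in WT and 4.04, 3.90 and 4.91 CPM in DKO (log2 fold change -0.74, adjusted p = 0.0213). Cfap57, a protein of motile cilia, had 1.04, 1.08 and 1.06 CPM in WT and 2.04, 2.04 and 2.33 CPM in DKO (log2 fold change 1.01, adjusted p = 0.0438). All 3 libraries of each group were close to each other in Cfap57, and summed ependymal markers, which name other ciliated cells, were 9.61 to 10.6 CPM in WT and 12.9 to 18.3 CPM in DKO. The part of these cells in the value of Cfap57 was not tested. Without DKO replicate 3, Cfap57 (adjusted p = 0.0768) and Skint3 (0.0763) were not called, and both were called in only 2 of the 12 fits without 1 library. The call of 1700057H15Rik was lost without WT replicate 2 or 3, that of 1700021L23Rik without any 1 WT replicate or DKO replicate 2, and that of Rhbdl2 without WT replicate 1 or 3 or DKO replicate 1 or 2.

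Near Ogg1, 10 genes fell in DKO, Camk1 among them. Wnt5b, a secreted ligand of the Wnt pathway, lies 6.10 Mb from Ogg1, overlaps Fbxl14 on the opposite strand and had 37.6, 38.2 and 32.8 CPM in WT and 17.6, 17.7 and 19.5 CPM in DKO. Each DKO library was below each WT library, and the log2 fold change was -0.99 (standard error 0.10, adjusted p = 0.00152). Zfp248, a zinc finger gene, fell from 15.01 ± 0.460 CPM to 9.80 ± 0.140 CPM (log2 fold change -0.61, standard error 0.06, adjusted p = 0.00105), with a smaller spread between replicates than most DEGs. Ninj2, an adhesion molecule named for its response to nerve injury, had 216, 168 and 193 CPM in WT and 105, 121 and 77.1 CPM in DKO (log2 fold change -0.93, adjusted p = 0.0323). Grm7, the group III metabotropic glutamate receptor that couples to Gi, was the most abundant of these genes, with 485, 452 and 454 CPM in WT and 337, 316 and 273 CPM in DKO (log2 fold change -0.59, adjusted p = 0.0129). Both groups kept apart in Ninj2 and Grm7, whereas the call of Grm7 was lost without any 1 of the WT replicates or DKO replicate 2. Ninj2 was not called without any 1 WT replicate, DKO replicate 1 or Ogg1-/- replicate 1 or 2. The unannotated transcript Gm44237, inside March8 on the same strand, had 1.89 ± 0.118 CPM in WT and 0.885 ± 0.0914 CPM in DKO (log2 fold change -1.1, adjusted p = 0.0104), and was not called without WT replicate 1 or 3.

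The other lower genes of this chromosome were 4 overlapping genes 15.04 to 15.05 Mb from Ogg1. Tex52, a testis-expressed gene, had 20.6, 18.0 and 16.5 CPM in WT and 7.80, 6.54 and 4.75 CPM in DKO (log2 fold change -1.52, standard error 0.15, adjusted p = 0.00152). Gm44596 and Gm43965 on the same strand had log2 fold changes of -1.095 and -2.08, and Gm15862 on the opposite strand had -1.47, with adjusted p between 0.00152 and 0.00206. Gm44596 fell from 40.3 ± 4.88 to 18.9 ± 3.06 CPM, Gm15862 from 25.5 ± 4.08 to 9.16 ± 2.13 CPM and Gm43965 from 2.13 ± 0.343 to 0.503 ± 0.0472 CPM. Their counts may share reads, so the 4 genes are not 4 separate observations.

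The 4 genes near Ogg1 that rose were Klri1, Depp1, Rassf4 and Pzp. Klri1, a killer cell lectin-like receptor of natural killer cells, had 0.109, 0.0607 and 0.212 CPM in WT and 1.76, 1.03 and 1.46 CPM in DKO (log2 fold change 3.44, standard error 0.36, adjusted p = 0.00187). Depp1, a target of FOXO factors, had 0.983, 0.925 and 0.647 CPM in WT and 2.14, 3.42 and 3.45 CPM in DKO (log2 fold change 1.81, adjusted p = 0.0082). DKO libraries of both genes were above all WT libraries. Klri1 had as few as 4 counts in a WT library and passed the filter on low counts through the groups where it is high. Rassf4, a Ras association domain protein, rose from 18.1 ± 0.956 to 32.9 ± 6.10 CPM (log2 fold change 0.86, adjusted p = 0.0104), and Depp1 lies within Rassf4 on the opposite strand, so that these counts may not be separate. Pzp, a secreted inhibitor of proteases of the alpha-2-macroglobulin family, had 2.40, 2.17 and 2.12 CPM in WT and 4.66, 6.97 and 9.71 CPM in DKO (log2 fold change 1.67, adjusted p = 0.0232), with a wider spread in DKO than in WT. The call of Depp1 was lost without WT replicate 3, and those of Rassf4 and Pzp without any 1 WT replicate or DKO replicate 2.

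Away from both targeted genes, 4 of the DEGs came from the Mid1 region of chromosome X and its copies on chromosome Y. Mid1 encodes a ubiquitin ligase that binds microtubules, and its gene crosses the boundary of the pseudoautosomal region in laboratory mice. The noncoding genes G530011O06Rik and Gm15247 lie inside Mid1 on the opposite strand, and Mid1-ps1 and Gm21742 are pseudogenes of chromosome Y. The RefSeq promoter table (GRCm38.p6), which held 22 of the 37 DEGs, lists 2 places for G530011O06Rik, and both promoters are shown because the reads of such copies can be confused. The X copy lies at chrX:169978868-169979167 and the Y copy, inside Mid1-ps1, at chrY:90755001-90755300, both on the minus strand. Over 296 aligned bases 292 were identical (98.6%), with 2 gap bases. Capitals mark bases that differ from the other printed stretch or have no counterpart in it. The opening TGTG of the X copy and the closing AT of the Y copy lie outside the aligned bases. Whether the other copy holds them was not looked at.
G530011O06Rik X: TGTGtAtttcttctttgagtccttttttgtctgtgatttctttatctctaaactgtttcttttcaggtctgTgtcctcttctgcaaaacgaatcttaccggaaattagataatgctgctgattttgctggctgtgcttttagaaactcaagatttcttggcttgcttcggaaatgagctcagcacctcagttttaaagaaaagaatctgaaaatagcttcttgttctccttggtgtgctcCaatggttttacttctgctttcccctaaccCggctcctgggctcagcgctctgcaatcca
G530011O06Rik Y: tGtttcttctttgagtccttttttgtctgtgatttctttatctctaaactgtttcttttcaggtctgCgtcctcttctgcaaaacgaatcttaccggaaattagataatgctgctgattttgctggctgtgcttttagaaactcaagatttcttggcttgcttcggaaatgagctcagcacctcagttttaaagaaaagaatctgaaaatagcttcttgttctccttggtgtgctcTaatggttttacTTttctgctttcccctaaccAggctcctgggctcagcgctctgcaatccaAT

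G530011O06Rik had 10.03, 11.8 and 11.3 CPM in WT and 3.91, 3.25 and 2.74 CPM in DKO (log2 fold change -1.74, standard error 0.13, adjusted p = 1.04e-04). Gm15247 had 5.01, 4.87 and 5.09 CPM in WT and 1.105, 1.195 and 0.875 CPM in DKO (log2 fold change -2.23, standard error 0.17, adjusted p = 1.04e-04). Every WT library was far above every DKO library in both genes. On chromosome Y, Mid1-ps1 had 33.8, 39.3 and 37.5 CPM in WT and 7.19, 7.12 and 12.6 CPM in DKO (log2 fold change -2.04, adjusted p = 0.0173). Gm21742 had 25.7 ± 2.47 CPM in WT and 5.76 ± 2.81 CPM in DKO (log2 fold change -2.17, adjusted p = 0.0461). Mid1 itself was 82.4, 85.8 and 92.7 CPM in WT and 44.3, 49.9 and 72.5 CPM in DKO, a log2 fold change of -0.65 that did not pass (adjusted p = 0.125). Without DKO replicate 3, the library with the highest DKO level, the log2 fold change of Mid1 was -0.88 with an adjusted p of 0.00232. The call of Mid1-ps1 was lost without any 1 WT replicate or DKO replicate 1 or 2, and that of Gm21742 also without 4 of the single knockout libraries.

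Chromosome 14 held 5 DEGs at 2 places. Plac9a, Gm9780 and Plac9b, genes of a small placenta-specific secreted protein, lie 0.124 and 0.125 Mb from their neighbours and rose together. Their RefSeq promoters are shown because the 3 genes are close copies, so that a read can come from any of them. The promoter of Gm9780 (chr14:26042688-26042987, minus strand) was identical to that of Plac9b in 300 of 300 bases, and shared an unbroken run of 222 bases, in capitals, with that of Plac9a (chr14:25902844-25903143, minus strand).
Plac9a: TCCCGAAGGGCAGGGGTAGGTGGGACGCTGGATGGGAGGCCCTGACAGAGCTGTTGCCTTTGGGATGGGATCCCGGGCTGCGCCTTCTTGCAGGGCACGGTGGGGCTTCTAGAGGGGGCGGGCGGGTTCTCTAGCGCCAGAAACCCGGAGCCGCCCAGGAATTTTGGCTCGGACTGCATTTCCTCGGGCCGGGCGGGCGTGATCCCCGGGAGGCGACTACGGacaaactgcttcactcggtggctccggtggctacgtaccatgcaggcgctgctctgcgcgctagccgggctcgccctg
Gm9780: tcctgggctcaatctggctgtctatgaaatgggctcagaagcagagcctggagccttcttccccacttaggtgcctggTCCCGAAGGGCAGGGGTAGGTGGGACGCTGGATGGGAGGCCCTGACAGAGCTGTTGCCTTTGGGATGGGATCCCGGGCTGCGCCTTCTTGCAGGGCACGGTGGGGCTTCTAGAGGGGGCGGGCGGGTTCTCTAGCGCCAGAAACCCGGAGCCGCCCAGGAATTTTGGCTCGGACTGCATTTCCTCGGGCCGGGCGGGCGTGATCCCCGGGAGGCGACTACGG

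Plac9a had 7.12, 7.68 and 6.03 CPM in WT and 10.9, 11.4 and 13.4 CPM in DKO (log2 fold change 0.77, standard error 0.10, adjusted p = 0.00749). Gm9780 and Plac9b had log2 fold changes of 0.77 and 0.78, with adjusted p of 0.00755 and 0.0104, and levels within 1 CPM of Plac9a in every library. With their shared sequence, the 3 calls may rest on the same reads, and that of Plac9b was lost without WT replicate 1. At the other place, Gm10248 and Gm47601 lie at Lrmda, a gene known from pigment cells. Gm10248, on the opposite strand to Lrmda, had 0.961, 0.774 and 0.697 CPM in WT and 3.28, 3.30 and 2.56 CPM in DKO (log2 fold change 1.90, standard error 0.14, adjusted p = 1.04e-04). Gm47601, inside Lrmda on its strand and 0.105 Mb from Gm10248, had 3.84, 3.50 and 3.67 CPM in WT and 2.26, 2.34 and 1.59 CPM in DKO (log2 fold change -0.83, adjusted p = 0.0398). Both groups of both genes were apart, and the 2 neighbours moved in opposite directions. Gm47601 was called in 3 of the 12 fits without 1 library.

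Of the 8 remaining DEGs, 7 are described here, which were scattered over 6 chromosomes. Mpp7 (chromosome 18), a scaffold protein of cell junctions and polarity, had 15.6, 18.9 and 19.8 CPM in WT and 34.6, 35.6 and 55.5 CPM in DKO (log2 fold change 1.21, standard error 0.16, adjusted p = 0.0082). DKO replicate 3 was the highest, and without it the log2 fold change was 0.96 (adjusted p = 0.00157), while the call was lost without WT replicate 1. Gm14703, antisense to the synaptic vesicle gene Syp on chromosome X, fell from 16.7 ± 0.159 to 11.7 ± 0.250 CPM (log2 fold change -0.52, adjusted p = 0.00426), and had 84.1 ± 7.12 CPM in WT NeuN+ nuclei. Gm14703 was thus several times higher in NeuN+ nuclei, and the 9 neuronal markers summed to 428 to 518 CPM in DKO and 515 to 614 CPM in WT. In NeuN+ nuclei the log2 fold change of Gm14703 was -0.26 and did not pass (adjusted p = 0.194). The part of neuronal RNA in the value of Gm14703 was not tested.

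Gbp4 (chromosome 5), a guanylate-binding protein induced by interferon that overlaps its relatives Gbp8 and Gbp9, had 1.23, 1.38 and 1.11 CPM in WT and 2.12, 2.49 and 2.41 CPM in DKO (log2 fold change 0.92, standard error 0.16, adjusted p = 0.0461). Ndufs5-ps (chromosome 16), a pseudogene of a subunit of respiratory complex I, rose from 2.08 ± 0.124 to 4.63 ± 0.956 CPM (log2 fold change 1.16, adjusted p = 0.00755). Its parent gene Ndufs5 lies on chromosome 4 between 123712710 and 123718202, beside Rhbdl2, and had 7.67 ± 0.668 CPM in WT and 5.65 ± 0.571 CPM in DKO (log2 fold change -0.44, adjusted p = 0.111), so the counts of parent and copy may not be separate. The call of Ndufs5-ps was lost without WT replicate 1 or 2. Fam166c (chromosome 5) was 0.348 ± 0.108 CPM in WT and 0.949 ± 0.0434 CPM in DKO (log2 fold change 1.43, adjusted p = 0.0464), and the noncoding B230220B15Rik (chromosome 13), opposite to Ndufaf2, 1.32 ± 0.297 and 2.78 ± 0.442 CPM (log2 fold change 1.07, adjusted p = 0.0382). E230020A03Rik (chromosome 7), inside Tshz3, fell from 3.46 ± 0.292 to 2.00 ± 0.220 CPM (log2 fold change -0.80, adjusted p = 0.0423). Without DKO replicate 3, Gbp4 (adjusted p = 0.0739) and Fam166c (0.0633) were not called, and Gbp4, Fam166c, B230220B15Rik and E230020A03Rik were called in at most 3 of the 12 fits without 1 library.

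Whether the DEGs of DKO differ from the single knockouts was tested directly within NeuN- nuclei. Between DKO and Mutyh-/-, 10 of the 37 DEGs differed at an adjusted p under 0.05 (0.148% of all tested genes did), and between DKO and Ogg1-/- 5 did (0.157% of all tested genes). The 10 were Zfp248, Gm43965, Tex52, Wnt5b, Gm44596, Klri1, Gm15862, Depp1, Gm44237 and Ninj2, all within 20 Mb of Ogg1. The 5 were Mutyh, Ndufs5-ps, 1700057H15Rik, 1700021L23Rik and Rhbdl2, of which 4 are within 10 Mb of Mutyh. No DEG differed from both single knockouts and 22 differed from neither, and the DKO libraries enter both tests. With the likelihood ratio test, 19 DEGs differed from Mutyh-/- and 7 from Ogg1-/-.

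The levels by genotype show these patterns gene by gene. Tex52 had 18.4 ± 2.06 CPM in WT and 18.0 ± 1.32 in Mutyh-/- but 6.39 ± 0.857 in Ogg1-/- and 6.36 ± 1.53 in DKO (log2 difference of DKO from Mutyh-/- -1.49, adjusted p = 0.00501). Klri1 had 0.111 ± 0.0531 CPM in Mutyh-/- and 1.38 ± 0.174 in Ogg1-/-, beside 1.42 ± 0.365 in DKO. Wnt5b was 27.9 ± 3.23 CPM in Mutyh-/- and 18.9 ± 2.34 in Ogg1-/-, and DKO was below Mutyh-/- by a log2 difference of -0.61 (adjusted p = 0.0397). Conversely, 1700057H15Rik had 8.78 ± 0.516 CPM in Mutyh-/- and 1.97 ± 0.176 in Ogg1-/-, and DKO was above Ogg1-/- (log2 difference 1.72, adjusted p = 6.38e-04). Ndufs5-ps had 5.22 ± 0.586 CPM in Mutyh-/- and 2.25 ± 0.155 in Ogg1-/- (log2 difference of DKO from Ogg1-/- 1.05, adjusted p = 0.0108). Ninj2 had 237 ± 36.7 CPM in Mutyh-/- and 82.0 ± 2.93 in Ogg1-/-, and Grm7 397 ± 39.6 and 253 ± 6.06, where DKO (309 ± 32.5) did not pass against either. G530011O06Rik had 3.30 ± 0.587 CPM in DKO, close to the 3.43 ± 0.412 of Mutyh-/- and the 3.24 ± 0.144 of Ogg1-/-, and the log2 differences of DKO from these were -0.05 and 0.03 (standard error 0.13 for both). Mid1-ps1 had 18.6 ± 3.86 CPM in Mutyh-/- and 9.89 ± 4.83 in Ogg1-/-, beside 8.98 ± 3.16 in DKO, and its difference from Mutyh-/- did not pass (log2 difference -1.06, adjusted p = 0.262). For Gm10248 the differences were 0.22 and -0.11 (standard error 0.13 for both), with levels of 2.62 ± 0.204 CPM in Mutyh-/- and 3.29 ± 0.0469 in Ogg1-/-. Mpp7 had 32.8 ± 3.43 CPM in Mutyh-/- and 36.5 ± 0.321 in Ogg1-/-, beside 41.9 ± 11.8 in DKO. Gbp4 was 2.34 ± 0.195 CPM in DKO against 1.27 ± 0.201 in Mutyh-/- and 1.53 ± 0.238 in Ogg1-/-, and its differences did not pass (adjusted p = 0.059 and 0.51). Plac9a was 8.53 ± 0.289 CPM in Mutyh-/- and 9.19 ± 0.3 in Ogg1-/-, between WT and DKO, and DKO did not pass against either (adjusted p = 0.102 and 0.547).

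**Figure D3:**
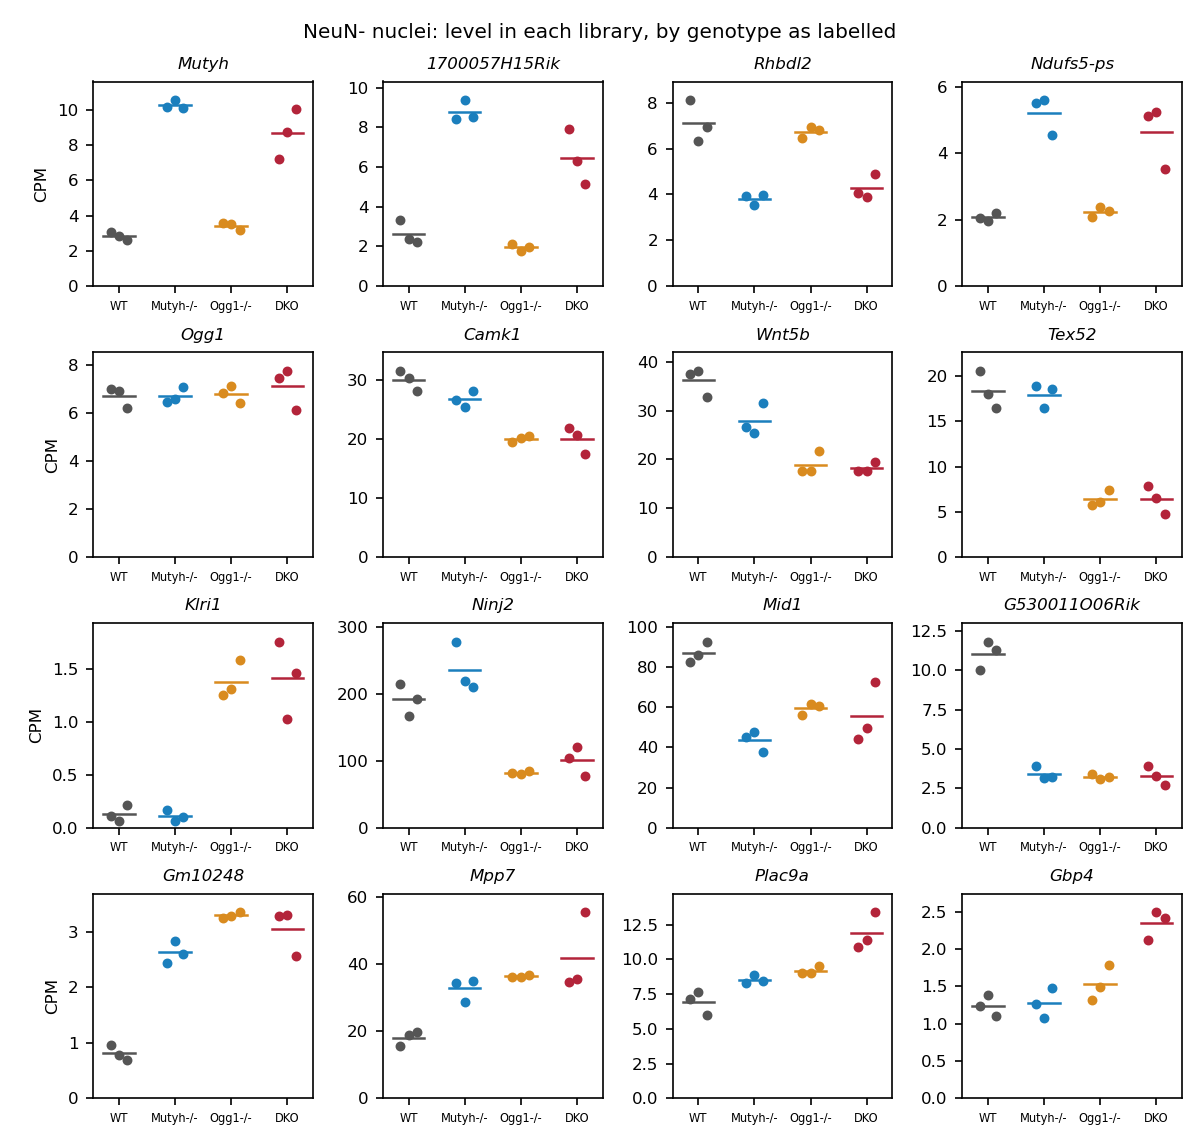
CPM of 16 genes in all 12 NeuN- libraries (y axes start at 0), by genotype as labelled, with 1 point per library and a line at each mean. Mutyh and the genes in its row lie near each other in Mutyh-/- and DKO, Wnt5b, Tex52, Klri1 and Ninj2 do so in Ogg1-/- and DKO, and G530011O06Rik and Gm10248 in all 3 knockouts.

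The same comparison was made in NeuN+ nuclei. Its libraries are separate, but both fractions were collected in the sorting and may come from the same pools. Across the fractions, deviations of libraries matched by genotype and replicate number correlated by 0.142 on average (0.0189 to 0.337). The NeuN+ values may thus not be an independent repeat, which was not tested. In NeuN+, 30 of the 37 DEGs were tested. Of these, 28 had the same direction in NeuN+ as in NeuN-, and 11 passed an adjusted p under 0.05 there, all in the same direction, where 0.494% of all genes tested in NeuN+ passed. In the Mid1 region the NeuN+ log2 fold changes were -2.92 for G530011O06Rik, -3.51 for Gm15247, -3.55 for Mid1-ps1 and -3.74 for Gm21742. Camk1 (-0.55) and Zfp248 (-0.47) were near their NeuN- values, and the difference between the fractions did not pass for any of these 6 genes (adjusted p of the interaction between 0.07 and 0.943). Mid1, which was no DEG in NeuN-, had -2.28 in NeuN+, a difference of 1.62 (adjusted p of the interaction 1.82e-04). Grm7 had -0.18 in NeuN+, where it did not pass. Gm10248 and Cfap57 had the opposite sign in NeuN+, with -0.17 and -0.68, and neither passed there. The fractions were sequenced on separate lanes, so lane and nuclear fraction cannot be told apart in these differences.

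The difference of the DKO effect between the fractions was tested with an interaction term over all 24 libraries, without pairing the fractions. It passed an adjusted p under 0.05 for 5 of the 37 DEGs, where 0.0567% of all genes tested passed. The 37 were chosen by their effect in NeuN- nuclei, which enters this term, so a higher share among them follows in part from that choice. Wnt5b was 16.8 ± 0.817 CPM in WT and 14.3 ± 1.19 CPM in DKO of NeuN+ nuclei, a log2 fold change of -0.23, so that its effect in NeuN- minus that in NeuN+ was -0.76 (adjusted p = 0.0115). Gm44596 had -0.19 in NeuN+ and a difference of -0.92 (adjusted p = 0.01). Mutyh and 1700057H15Rik were higher in DKO in both fractions, with log2 fold changes in NeuN+ of 2.99 and 3.66, and differences of -1.40 and -2.37 (adjusted p = 0.00184 for both). Cfap57 was 0.980 ± 0.137 CPM in WT and 0.604 ± 0.236 CPM in DKO of NeuN+, a difference of 1.69 (adjusted p = 0.0319).

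**Figure D4:**
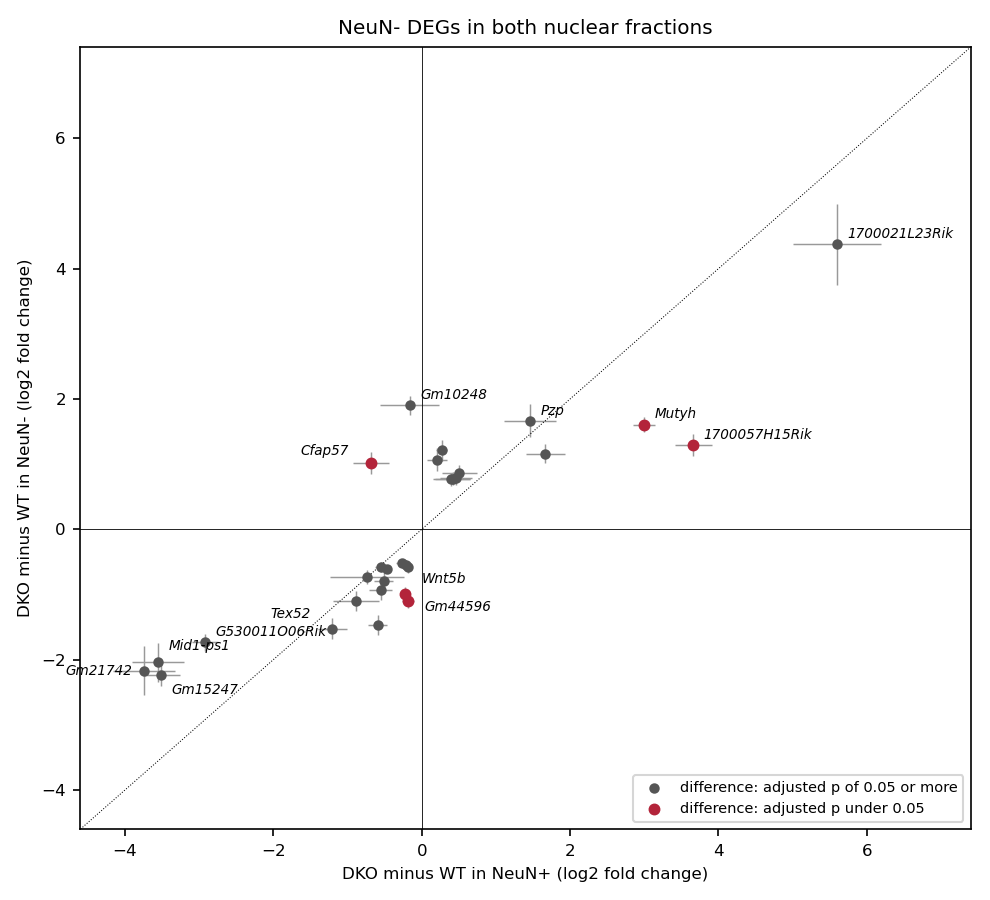
Log2 fold change of DKO against WT in NeuN+ (x axis) and NeuN- (y axis) for the 30 DEGs of NeuN- tested in both, with standard errors as bars and a dotted line of equal values. Red points mark the 5 genes whose effect differed between the fractions. Wnt5b, Gm44596 and Cfap57 lie away from the line on the side of NeuN-, and Mutyh and 1700057H15Rik on the side of NeuN+.

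Marker lists of glial and other cell types held no DEG, and their summed levels are given for each group as a description. Over all tested genes 6.06% were higher and 6.31% lower at an unadjusted p under 0.05. The 13 oligodendrocyte and myelin genes were all below WT (median log2 fold change -0.24, against 0.01 over all tested genes), 7 of them at an unadjusted p under 0.05. Their sum was 7859, 8003 and 6418 CPM in DKO, below the 8626 to 9509 CPM of WT. Cnp, an enzyme of myelin, was 383 ± 29.8 CPM in WT and 266 ± 49.3 CPM in DKO, and its log2 fold change of -0.53 did not pass (adjusted p = 0.169). Mbp, myelin basic protein, had -0.10. The 9 genes of oligodendrocyte precursors were also all below WT (median -0.14), led by Olig1 (-0.38, adjusted p = 0.0953), but their sums overlapped. Of 10 astrocyte genes 9 were above WT (median 0.19), 5 at an unadjusted p under 0.05, with sums of 3786 to 4494 CPM in WT and 4789 to 4866 CPM in DKO. Gfap, the intermediate filament of astrocytes, was 37.9, 37.7 and 45.7 CPM in WT and 53.9, 64.9 and 54.3 CPM in DKO, and its log2 fold change of 0.51 did not pass (adjusted p = 0.0725). Of 11 microglial genes 4 were above and 7 below WT (median -0.02) and none reached an unadjusted p under 0.05, with Csf1r at -0.03 and Cx3cr1 at -0.03.

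Among cells that can be carried over into this fraction, all 9 neuronal genes were below WT (median -0.31, 6 at an unadjusted p under 0.05). Grin1, a subunit of the NMDA receptor, was 32.3, 36.9 and 35.5 CPM in WT and 25.2, 22.4 and 25.7 CPM in DKO (log2 fold change -0.51, adjusted p = 0.053). All 8 interneuron genes were below WT as well (median -0.20), led by Sst, the peptide of a class of interneurons (-0.73, adjusted p = 0.0587). Their sums overlapped between the groups, and in WT they were 297 to 326 CPM in NeuN- and 222 to 240 CPM in NeuN+. Reln, at 277 ± 13.9 CPM in WT NeuN- nuclei, made up most of this sum. Gad1, an enzyme of GABA synthesis, was 22.6 ± 0.973 CPM there and higher in WT NeuN+ nuclei (69.1 ± 4.14 CPM). The sums of choroid plexus (8 genes, 50.9 to 85.5 CPM in WT and 17.7 to 290 CPM in DKO) and meningeal genes (5 genes, 16.04 to 20.8 and 21.7 to 42.2 CPM) were highest in DKO replicate 3. Without this library the median of the choroid plexus list turned from 1.14 to -0.34. The 5 ependymal genes were all above WT (median 1.16), 3 of them at an unadjusted p under 0.05, and their sums did not overlap. These 3 were Tmem212, Ccdc153 and Dynlrb2, of which the last 2 had only 0.666 and 0.289 CPM in WT. The other members, Foxj1 (0.13, adjusted p = 0.711) and Rarres2 (0.25, adjusted p = 0.528), were nearer to WT. Endothelial genes had a median of 0.11, which was -0.02 without DKO replicate 3 and 0.34 without DKO replicate 1, and pericyte genes had 0.01, which ran from -0.13 without DKO replicate 2 to 0.12 without DKO replicate 1. The median was 0.19 over 7 genes of thalamus and habenula, regions next to the hippocampus, with sums of 264 to 308 CPM in WT and 304 to 354 CPM in DKO.

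**Figure D5:**
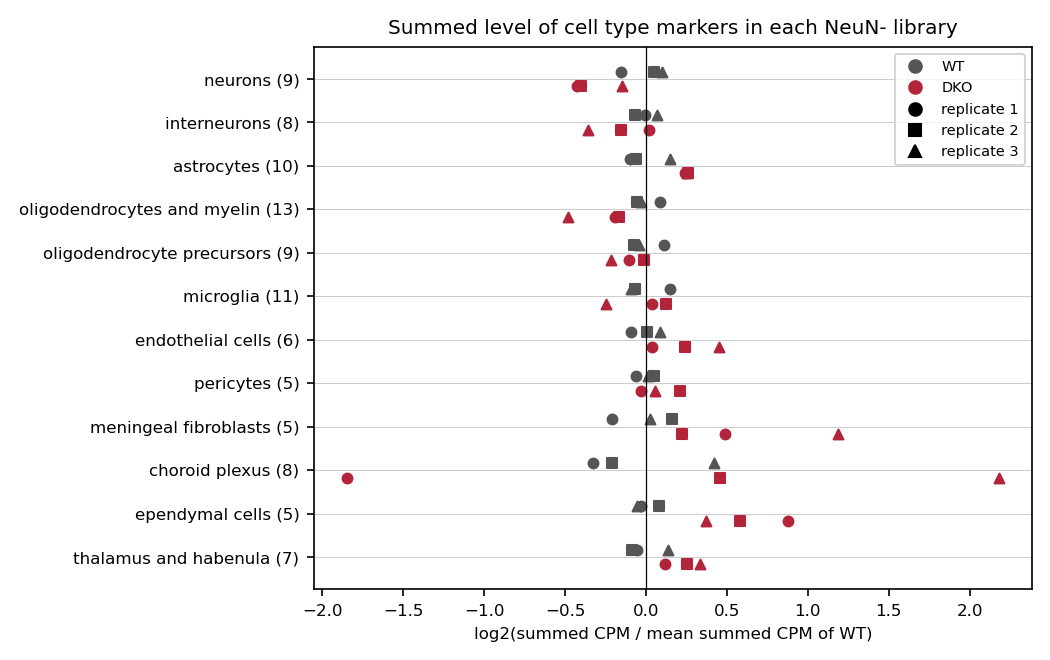
Summed CPM of each marker list in the 6 NeuN- libraries as log2 of the ratio to the WT mean (x axis), with the number of genes in parentheses and 1 symbol per replicate. Oligodendrocyte and myelin genes lie below WT and astrocyte and ependymal genes above it in all DKO libraries, whereas choroid plexus genes spread from 17.7 to 290 CPM within DKO.

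A further 20 genes passed the adjusted p with a log2 fold change within 0.5, of which 15 were lower and 5 higher in DKO. They were looked at after their values were seen. The lower ones included genes of the synapse and of neurons, such as Cplx1 (complexin, which controls vesicle fusion, -0.45, adjusted p = 0.00426), Syp (-0.37, 0.0127), Uchl1 (-0.45, 0.0175), Sncb (-0.46, 0.023) and Dnm1 (-0.28, 0.0262). Cplx1 was 15.3 to 16.7 CPM in WT and 11.6 to 12.1 CPM in DKO, and Syp 30.9 to 32.7 and 23.5 to 25.3 CPM. As with Gm14703, the neuronal markers moved with these genes, and their part in the result was not tested. In NeuN+ nuclei the log2 fold changes were -0.25 for Cplx1, -0.16 for Syp, -0.28 for Uchl1, -0.36 for Sncb and -0.05 for Dnm1. Of these only Sncb passed there (adjusted p = 0.0468). Of the higher ones, Scp2, a carrier of sterols and lipids (0.45, adjusted p = 0.00693), and Podn (0.42, 0.00891) lie 8.66 and 8.71 Mb from Mutyh, and of the lower ones Ebna1bp2 (-0.43, 0.0198) and Nrd1 (-0.28, 0.0213) lie 1.80 and 7.75 Mb from it.

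Lists of DNA repair and of chromatin held 1 DEG in all, Mutyh. Of 11 DNA glycosylases Mutyh was the only DEG, the others lay between a log2 fold change of -0.07 (Neil1) and that of Neil3 (0.34, adjusted p = 0.472), and the median was 0.03, or -0.03 without WT replicate 3. The 14 genes of the later steps of base excision repair had 0 DEGs, 0 at an unadjusted p under 0.05 and log2 fold changes from -0.26 (Fen1, adjusted p = 0.417) to 0.06. The 13 genes of PRC2, the complex that methylates histone H3 at lysine residue K27, and its counterparts had 0 DEGs and a median of -0.02, with Rbbp4 at -0.15 (adjusted p = 0.296) as the only 1 at an unadjusted p under 0.05. The 11 genes of DNA methylation had 0 DEGs and lay between -0.10 (Dnmt1, adjusted p = 0.457) and 0.06 (Tet1). Of 4 nudix hydrolases, which clean the nucleotide pool, none was a DEG, and Nudt1 had 0.08.

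The study names 15 genes in NeuN- nuclei, chosen on these samples, so their count is not independent evidence. Of 13 that were tested, 1 was a DEG, Grm7, and 2 were lower at an unadjusted p under 0.05, Grm7 and Wnt3 (-0.33, adjusted p = 0.403). Wnt10a and Wnt9b did not pass the filter on low counts. The others did not pass, with Bdnf at -0.45 (adjusted p = 0.488), Cacna1i at -0.25, Grm4 at -0.17, Npr3 at 0.54, Wnt6 at 0.93 (adjusted p = 0.473), Wnt3a at 0.15, Htr7 at 0.04, Ppp2r5e at 0.04, Adcy8 at 0.02, Rptor at 0.01 and Braf at -0.01. Htr7 was 0.850, 0.979 and 2.51 CPM in DKO and 1.28, 1.65 and 1.26 CPM in WT, a spread within DKO that spans both sides of WT. Without DKO replicate 3 the log2 fold changes were 0.18 for Npr3, 0.36 for Wnt6, -0.18 for Wnt3, -0.13 for Wnt3a and -0.61 for Htr7.

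In signalling lists, Wnt5b was the only DEG among 14 tested Wnt ligands, of which 10 were above WT. Wnt11 (0.80, adjusted p = 0.318) and Wnt4 (0.38, adjusted p = 0.33) were the next by p, with the opposite sign to Wnt5b. Over all tested genes 6.06% were higher and 6.31% lower at an unadjusted p under 0.05, to be read beside the counts that follow. Of 36 genes of cAMP and Gi signalling none was a DEG, 21 were below WT and 6 of these at an unadjusted p under 0.05, led by the protein kinase A subunits Prkar1a (-0.19, adjusted p = 0.212) and Prkaca (-0.16, adjusted p = 0.23). Of the 15 above WT, 2 reached an unadjusted p under 0.05. Of 22 calcium channel genes 15 were below WT, 5 at an unadjusted p under 0.05, led by Cacna1g (-0.27, adjusted p = 0.214), and none was a DEG. Of 30 interferon response genes 23 were above WT (median 0.13) and 8 at an unadjusted p under 0.05, while 0 of the 7 others were, and none was a DEG. Gbp4, a DEG given above, belongs to the same response but was not on this list, which holds its relatives Gbp2, Gbp3, Gbp5 and Gbp7. H2-K1, an MHC class I gene, was 10.2, 9.07 and 9.55 CPM in WT and 12.0, 14.1 and 11.8 CPM in DKO (log2 fold change 0.40, adjusted p = 0.0776). H2-Ab1, of MHC class II, was 0.579, 0.410 and 0.660 CPM in WT and 1.38, 1.11 and 2.72 CPM in DKO (log2 fold change 1.64, adjusted p = 0.204), and Oas2 had 1.17 (adjusted p = 0.124). These 3 genes were named for their small p, and DKO replicate 3 was the highest for H2-Ab1 and Oas2, which had 1.18 and 0.84 without it. The groups were apart in these 3, in 9 of the 30 genes of the list and in 17% of all tested genes. The 7 genes below WT included the interferon-induced Ifit2 (-0.19), Isg15 (-0.15) and Usp18 (-0.08). Of 17 reactive glia genes 12 were above WT and 6 at an unadjusted p under 0.05, with Vim at 0.54 (adjusted p = 0.198) and Osmr at 0.39 (adjusted p = 0.251).

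Lists of metabolism and stress held no DEG either. Of 10 genes of glutamate and potassium clearance, a task of astrocytes, 9 were above WT (median 0.18), with Gja1 at 0.23 (adjusted p = 0.309). Of 21 genes of cholesterol synthesis 19 were below WT (median -0.08), with Fdps at -0.23 (adjusted p = 0.164) and Hmgcs1 at -0.27 (adjusted p = 0.175). Of 23 antioxidant genes 16 were below WT (median -0.06), whereas Nfe2l2, the factor that drives many of them, had 0.18 (adjusted p = 0.215) and Slc7a11, the cystine transporter, 0.41 (adjusted p = 0.23). The medians were -0.02 over 13 genes of p53 and its targets, 0.03 over 14 immediate early genes, -0.04 over 15 clock genes, 0.15 over 10 genes of the glucocorticoid response and 0.18 over 13 heat shock genes. Without DKO replicate 3 these turned to -0.10 for immediate early, 0.06 for clock and -0.07 for heat shock genes, and fell to 0.02 for the glucocorticoid response. Hspa1a was 1.91, 5.21 and 25.2 CPM in DKO and 2.42, 3.16 and 5.78 CPM in WT, highest in DKO replicate 3, as were the choroid plexus genes. The log2 fold change of Hspa1a was 1.49 with all libraries and -0.13 without DKO replicate 3. Of 4 genes that differ between C57BL/6 substrains, Nnt was 59.6, 58.4 and 56.5 CPM in WT and 52.9, 51.4 and 57.5 CPM in DKO (log2 fold change -0.11, adjusted p = 0.421), and none was a DEG.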

How the data were processed

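RNA of NeuN- nuclei was measured in 12 libraries, 3 for each of 4 genotypes, made with a kit for stranded total RNA. Per the submitters' processing notes and the methods, the authors checked reads with FastQC 0.11.9, aligned pairs to GRCm38 with HISAT2 2.1.0 and counted properly aligned pairs per gene with featureCounts, and the deposited values are these raw counts, not normalized, for 55254 gene symbols. Settings for strand, overlapping genes and reads with several places are not given in the sources used here. Counts were filtered with filterByExpr (31863 genes), scaled by TMM and fitted over the 12 NeuN- libraries with edgeR 4.0.16 in R 4.3.3 by the quasi-likelihood test, with Benjamini-Hochberg adjustment over all tested genes. The biological coefficient of variation was 0.124. NeuN+ libraries were fitted in the same way (30132 genes), and the interaction over all 24 libraries (33523 genes). Symbols were matched to GRCm38 positions in GENCODE vM21 or, where absent there, in RefSeq, and 98.5% of tested genes had one. Distances in the text run from gene edge to gene edge. Intervals of low counts are exact (Clopper-Pearson) at 95% and cover counting error only. At least 97.8% of tested genes differed in count between any 2 libraries of a genotype.

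The text names Ogg1, Mutyh, Camk1 and Mid1, the first 15 DEGs in each direction by adjusted p, the DEGs and up to 3 other members of each list with the smallest p, the first 2 genes of each marker list and the genes the study names. Gbp4, Fam166c, Ninj2, Gm47601, E230020A03Rik, Gm21742 and Skint3 lie beyond these 15 and are given so that every DEG is shown. The comparison and the lists were chosen with earlier results of these data known. Alternatives were RLE and upper quartile factors, other filters and fold thresholds, limma 3.58.1 voom, DESeq2 1.42.0, the likelihood ratio test, a robust fit, the replicate block, a fit of WT and DKO alone and fits without 1 library. Scripts were tested on simulated data. Mitochondrially encoded genes were not analysed here, and 1 DEG and a few members of the lists are not reported here.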

Additional observations from a re-analysis of the deposited data

Results flagged for a closer look

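The effect of DKO on 5 DEGs differed between the nuclear fractions by the interaction term of edgeR's quasi-likelihood test (adjusted p under 0.05), given here as log2 effect in NeuN- minus that in NeuN+. It was -1.40 for Mutyh, -2.37 for 1700057H15Rik, -0.76 for Wnt5b, -0.92 for Gm44596 and 1.69 for Cfap57. In Mutyh and 1700057H15Rik the effect was positive in both fractions and larger in NeuN+, in Wnt5b and Gm44596 it was negative in both and larger in NeuN-, and in Cfap57 the signs were opposite. Mid1, which was no DEG in NeuN- nuclei, differed too, by 1.62, with a log2 fold change of -0.65 in NeuN- and -2.28 in NeuN+. At an unadjusted p under 0.05 the interaction passed for 18 of the 37 DEGs and for 3150 of all 33523 genes. The DEGs were chosen by an effect that enters this term, so these counts are not a like comparison.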

How the results depend on the processing

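Of the comparison of DKO with WT, the count of 37 DEGs (17 higher, 20 lower) stayed within 1.5 times under RLE factors, upper quartile factors, a minimum of 10 counts in every library, limma-voom and the robust fit. It was 73 (37 higher, 36 lower) with no filter on low counts, 178 (91, 87) with DESeq2's Wald test, 174 (88, 86) with the likelihood ratio test, 57 (22, 35) with no fold threshold and 22 (12, 10) with an absolute log2 fold change above 1. With only the 6 libraries of DKO and WT fitted it was 10 (2, 8), and 8 of the 37 were called again. With the replicate number as a block it was 63 (26, 37), and 33 of the 37 were called again. Same-numbered WT and DKO libraries deviated together in part only (correlations of deviations 0.202, -0.117 and 0.0694). Between libraries of different genotypes the mean correlation was 0.0463 for the same number and -0.0227 for different numbers. Whether the numbers pair the samples cannot be told from these values. Over the fits without 1 library, the count ranged from 19 to 55, with 8 to 28 higher and 10 to 36 lower. The fewest were left without WT replicate 1 or 3 and the most without DKO replicate 3, and 14 DEGs were called in all 12. The number of DEGs that differed from Mutyh-/- was 10, 9 with the replicate block and 19 with the likelihood ratio test. The number that differed from Ogg1-/- was 5, 4 with the block and 7 with that test. The interaction was called for 5, and for 10 with genotype and number as a block or with the likelihood ratio test. Of 810 fits of single DEGs 165 missed the call and none changed direction, which groups without overlap largely fix in advance. Of 256 list medians under other settings 12 moved by more than the spread between replicates. The cause of these shifts was not tested. Depth limits 1700021L23Rik and Skint3, which rest on 2 counts in 1 of the groups. With a minimum of 10 counts in every library 34 of the 37 DEGs were tested, without these 2 and Klri1.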
